A study of Mus musculus with 384 samples.

Results

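Bone marrow-derived macrophages of wild-type (WT) mice were given Zymosan, a preparation of yeast cell wall, and lysed after 0.5, 1, 1.5, 2, 2.5, 3 or 4 h. The course comprises 14 of the 384 wells of the series. It holds the 7 Zymosan wells after time 0 on each of 2 WT plates (replicates 1 and 2), chosen by genotype, ligand and time in the sample labels. The baseline was time 0 of the same plate, for which its 12 time 0 wells, 1 for each of the 12 ligands, were pooled. LPS (bacterial lipopolysaccharide) and Pam3Cys (a synthetic lipopeptide), with 14 WT wells each over the same times, served as reference ligands. All of these groups, time 0 included, were marrow cultures from male C57BL/6 mice, 13 weeks old, transduced on day 4 of culture with a pool of reporter viruses and replated on day 9. The labels do not state ligand doses, nor whether the 2 plates hold cells of separate mice, so the p-values measure the spread between plates, which may be technical.

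Zymosan is bound by Dectin-1 (Clec7a), a lectin receptor for beta-glucan that signals through the kinase Syk and the adaptor Card9, and by Toll-like receptor 2 (Tlr2), which signals through Myd88. Both routes activate MAP kinases and NF-kB. The MAP kinases switch on immediate early genes, whose promoters are ready before any new protein is made, and NF-kB drives cytokine, chemokine and feedback genes. Interferon-stimulated genes are switched on by IRF3, or by secreted type I interferon acting through its receptor. Activated macrophages are also known to raise glucose uptake and glycolysis and to make itaconate, an antimicrobial metabolite made from a TCA cycle intermediate.

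Total counts were 227143 to 546235 in the Zymosan wells and 84108 to 515345 in the time 0 wells, whose pools held 4901235 and 3167670 counts. At this depth a level of 10 CPM (the gene's share of the well's counts, scaled to a common total) rests on a few counts in a single well. The macrophage list of 25 genes summed to 12200 to 22500 CPM in the time 0 wells and 13300 to 18800 CPM in the Zymosan wells. Marker lists of T and NK cells, B cells, mast cells and stroma stayed at or under 17.6 CPM in every one of these wells, and dendritic cell markers at or under 50.8 CPM. The neutrophil list reached 421 CPM at time 0 and 183 CPM with Zymosan, with Mpo and Elane at 0, and the erythroid and megakaryocyte list 392 and 305 CPM, with Hba-a1 and Hbb-b1 at 0. On replicate 2, the 2 shallowest time 0 wells, with 84108 and 115716 counts, held more Il1b (1962 and 1115 CPM) than the other 10, which held 330.9 to 738.3 CPM. The ribosomal transcript Rn45s took 12.4% and 15.9% of the counts in the 1.5 h Zymosan wells and 5.78% to 11.8% in the other Zymosan wells after time 0. The part of Rn45s in the results was not tested, and the counts without the 2 shallow wells are given with the counts of called genes.

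Because the lists used below differ in how their promoters are known to be driven, promoter stretches of 8 genes on which the order of the course turns are printed here, from RefSeq on GRCm38.p6 and on the strand of the gene. Capitals mark matches, on either strand, to 4 consensus motifs: NF-kB (GGGA, any base, TT, any base, CC), ISRE (the interferon-stimulated response element: GAAA, any 2 bases, GAAA), AP-1 TGANTCA and CRE (the cyclic AMP response element) TGACGTCA. Dusp1 (chr17:26508468-26508637, minus strand) stands for the immediate early genes. Cxcl2 (chr5:90903749-90903918, plus strand), Cxcl1 (chr5:90891095-90891264, plus strand) and Nfkbia (chr12:55492628-55492797, minus strand) stand for the NF-kB genes. Cxcl10 (chr5:92348870-92349109, minus strand), Ifit1 (chr19:34640739-34640908, plus strand), Rsad2 (chr12:26456433-26456602, minus strand) and Isg15 (chr4:156200799-156200968, minus strand) stand for the interferon genes.
Dusp1: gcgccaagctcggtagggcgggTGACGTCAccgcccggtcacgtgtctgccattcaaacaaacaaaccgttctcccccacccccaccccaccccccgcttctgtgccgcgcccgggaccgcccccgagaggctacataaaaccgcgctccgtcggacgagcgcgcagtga
Cxcl2: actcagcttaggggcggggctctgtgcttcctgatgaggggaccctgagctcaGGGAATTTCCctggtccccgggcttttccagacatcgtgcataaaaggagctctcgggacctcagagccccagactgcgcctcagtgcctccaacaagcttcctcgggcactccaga
Cxcl1: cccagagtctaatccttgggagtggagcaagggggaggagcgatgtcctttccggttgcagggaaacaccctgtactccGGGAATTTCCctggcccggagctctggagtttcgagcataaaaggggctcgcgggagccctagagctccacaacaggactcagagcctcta
Nfkbia: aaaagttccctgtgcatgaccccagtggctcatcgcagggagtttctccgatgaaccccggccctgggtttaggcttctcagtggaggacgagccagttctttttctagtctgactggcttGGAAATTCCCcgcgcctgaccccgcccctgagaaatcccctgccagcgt
Cxcl10: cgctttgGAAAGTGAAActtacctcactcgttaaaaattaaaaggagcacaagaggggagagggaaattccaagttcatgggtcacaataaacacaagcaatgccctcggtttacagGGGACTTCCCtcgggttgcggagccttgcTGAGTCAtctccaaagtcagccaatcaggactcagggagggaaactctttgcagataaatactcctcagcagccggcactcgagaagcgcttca
Ifit1: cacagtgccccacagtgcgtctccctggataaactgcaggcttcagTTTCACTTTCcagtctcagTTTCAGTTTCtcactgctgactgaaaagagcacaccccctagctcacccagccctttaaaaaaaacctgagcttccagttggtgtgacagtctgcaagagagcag
Rsad2: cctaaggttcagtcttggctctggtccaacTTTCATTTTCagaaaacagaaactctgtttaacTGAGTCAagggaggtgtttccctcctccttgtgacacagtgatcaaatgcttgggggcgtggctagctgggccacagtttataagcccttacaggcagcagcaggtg
Isg15: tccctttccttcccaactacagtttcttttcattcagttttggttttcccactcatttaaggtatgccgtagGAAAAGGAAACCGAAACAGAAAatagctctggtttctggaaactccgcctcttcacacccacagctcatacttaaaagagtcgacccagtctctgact
The match in Dusp1 is a CRE starting 143 bases before the transcription start. The NF-kB matches start 97 bases before the start in Cxcl2, 71 in Cxcl1 and 29 in Nfkbia. Cxcl10 holds an ISRE at 213, an NF-kB match at 103 and an AP-1 match at 74 bases before the start. Ifit1 holds ISRE matches at 104 and 85, Rsad2 an ISRE at 120 and an AP-1 match at 87, and Isg15 overlapping ISRE matches at 78, 72 and 66. In windows from 250 bases before to 50 after the start, the NF-kB motif was found in 1.2% of all 32851 RefSeq promoters, the ISRE in 3.44%, AP-1 in 7.81% and CRE in 1.79%. Among promoters of the NF-kB list, 28.2% of 39 held the NF-kB motif. Among those of the interferon-stimulated list, 42.6% of 54 held an ISRE, and of the IRF3 list 50.0% of 10. Among immediate early promoters, 12.9% of 31 held a CRE and none the NF-kB motif. A match describes the letters only.

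Each time was compared with time 0 by edgeR's quasi-likelihood test across 8932 genes, and a gene was called where its Benjamini-Hochberg adjusted p was under 0.05. The number called higher rose from 22 genes (0.246%) at 0.5 h through 65 (0.728%) at 1 h, 124 (1.39%) at 1.5 h, 186 (2.08%) at 2 h, 191 (2.14%) at 2.5 h and 304 (3.4%) at 3 h to 350 (3.92%) at 4 h. Over the 7 times, 667 genes (7.47%) were called in either direction at 1 or more times, 457 of them higher (5.12%). Their highest mean level fell at 4 h for 205 genes and at 0.5 or 1 h for 36. Of the 22 genes called at 0.5 h, 14 were also called at 4 h and 8 were not. Of the 124 called higher at 1.5 h, 37 were not called at 4 h. Some genes, such as Pik3r5, Kmt2d and Med12, were called higher at 1.5 h only. The mean level of Pik3r5 was 321.5 CPM at time 0, 2431 CPM at 1.5 h and 575.5 CPM at 4 h. Such genes count among the 457. Of the Zymosan wells, those at 1.5 h had the largest Rn45s share, and a link with these calls was not tested. The means of the early wells (0.5 and 1 h) and of the late wells (2.5, 3 and 4 h) were tested against time 0 as well. Early, 41 genes were higher (0.459%) and 2 lower (0.0224%), and late, 380 were higher (4.25%) and 246 lower (2.75%). The number called lower went from 1 (0.0112%) at 0.5 h and 2 (0.0224%) at 1 h through 13 (0.146%), 33 (0.369%), 93 (1.04%) and 79 (0.884%) to 109 (1.22%) at 4 h. The counts moved with the fit: with the Myd88 knockout wells in the same fit, 12, 32, 26, 76, 108, 157 and 228 genes were called in either direction at the 7 times, and with only the time 0 pool of replicate 2 as baseline 29, 33, 85, 113, 162 and 227 from 1 h on. Without the 2 shallowest time 0 wells, 25, 70, 156, 222, 302, 387 and 476 genes were called in either direction at the 7 times. With all time 0 wells these counts were 23, 67, 137, 219, 284, 383 and 459. No count of the immediate early, NF-kB, late inflammatory, interferon, glycolysis or itaconate lists moved by more than 2 genes without these wells.

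**Figure D1:**
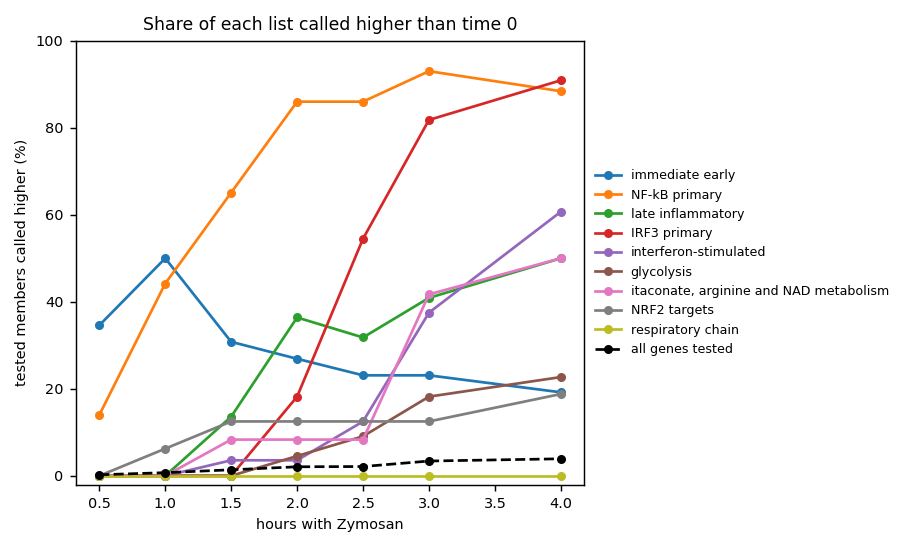
Share of the tested members of each gene list called higher than time 0 (vertical axis, %, edgeR adjusted p under 0.05) at each time with Zymosan (horizontal axis, h), with all 8932 tested genes as the dashed line. The immediate early share is highest at 1 h, the NF-kB share is the highest of all lists from 1.5 to 3 h, the IRF3 share leaves 0 at 2 h, the interferon-stimulated share is at most 3.57% until 2 h and 12.5% at 2.5 h, and the respiratory chain stays at 0.

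The immediate early genes moved first and, for the most part, briefly. Of 26 tested, 9 were called higher at 0.5 h and 13 at 1 h, then 8, 7, 6, 6 and 5 at the later times. With both genotypes in the fit these counts were 8, 7, 0, 3, 3, 4 and 4. Egr1, a zinc finger transcription factor, stood at 86.7 CPM at time 0 on replicate 1 and at 1263, 705, 84.1, 60.0, 79.6, 50.9 and 69.2 CPM at the 7 times. On replicate 2 it stood at 59.4 CPM at time 0 and at 1373, 438, 103, 112, 35.2, 54.2 and 48.5 CPM. Both wells at 0.5 h lay above every time 0 well (11.9 to 125 CPM), and all wells from 1.5 h on lay within the time 0 range. The log2 change of Egr1 was 4.17 (SE 0.70, edgeR adjusted p = 4.02e-05) at 0.5 h.
Fos, a subunit of AP-1, rose from 308 and 279 CPM to 2479 and 2780 CPM at 0.5 h (log2 change 3.16, SE 0.38, edgeR adjusted p = 6.97e-10). At 2.5 h it was at 113 and 61.6 CPM, below its time 0 level (log2 change -1.61, SE 0.42, edgeR adjusted p = 0.0095). That call was lost without Zymosan replicate 2, without the time 0 pool of replicate 1 and with both genotypes in the fit. Jun, the partner of Fos in AP-1, was likewise below time 0 at 2.5 h (log2 change -1.95, SE 0.44, edgeR adjusted p = 0.0011), with 33.2 and 48.4 CPM against 157 and 176, though not without Zymosan replicate 1. At 4 h the Jun wells held 188 and 132 CPM.
Btg2, an antiproliferative gene, and Ier2 also peaked at 0.5 h in both plates. Dusp1, which dephosphorylates MAP kinases, and Zfp36, which destabilizes cytokine mRNAs, peaked at 1 h. Dusp1 reached 695 and 524 CPM from 96.7 and 79.9 CPM.
The 5 called higher at 4 h were Junb, Zfp36, Klf6, Dusp1 and Dusp2. Dusp2, another MAP kinase phosphatase, rose early and stayed high: from 34.3 and 34.4 CPM it was at 485 and 453 CPM at 0.5 h, and still at 190 and 222 CPM at 4 h, when it was called higher (log2 change 2.81, SE 0.41, edgeR adjusted p = 1.21e-08). Id3, an inhibitor of helix-loop-helix factors that is no member of this list, was called higher from 0.5 to 2 h and not at the later times.

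**Figure D2:**
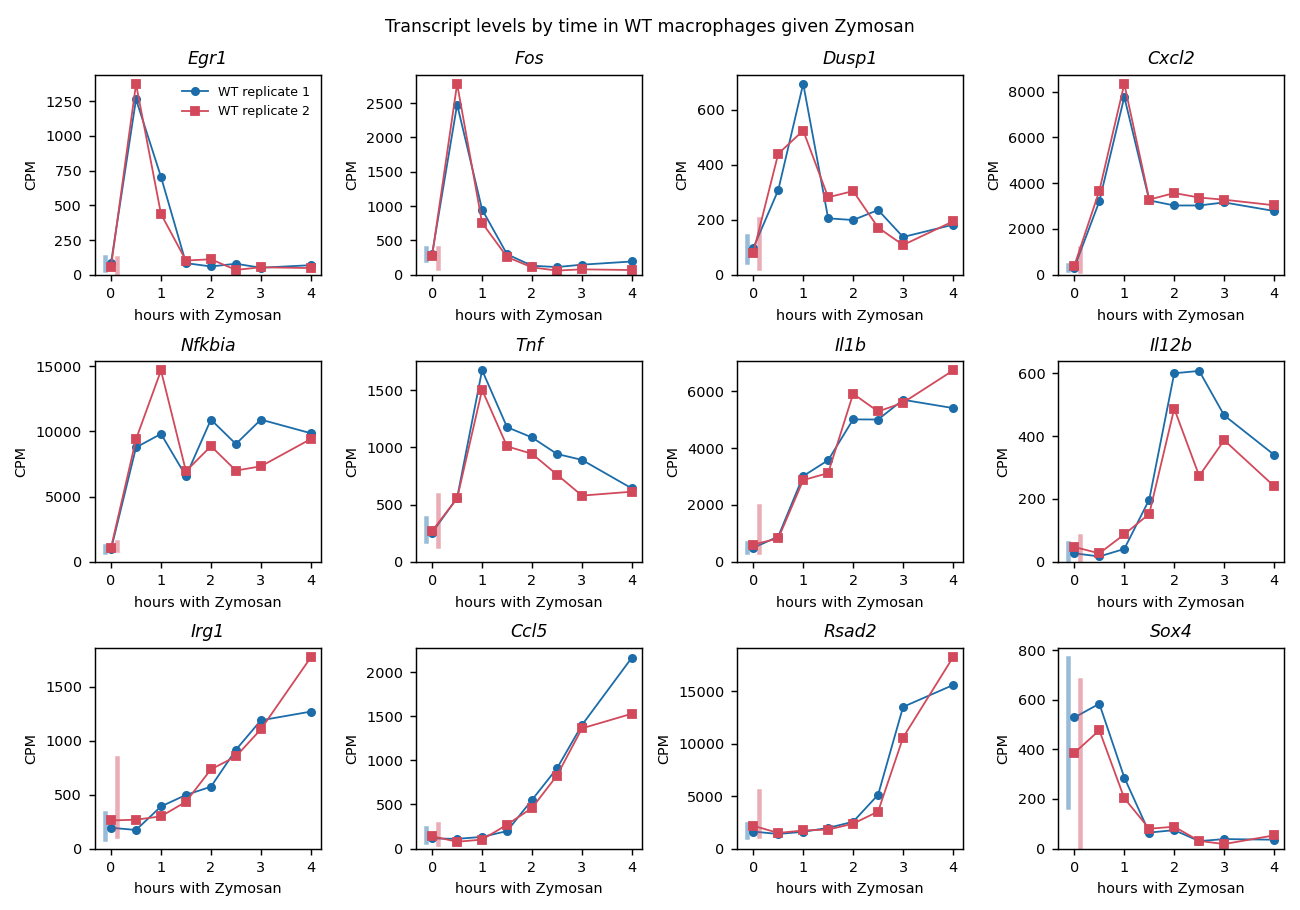
Level (CPM, vertical axis from 0) of 12 genes against time with Zymosan (h), with 1 point per well for WT replicate 1 (circles) and replicate 2 (squares), pooled time 0 at 0 h and bars for the range of the 12 time 0 wells. Egr1 and Fos peak at 0.5 h, Cxcl2 and Tnf at 1 h, Il12b between 2 and 2.5 h, and Ccl5 and Rsad2 reach their highest level at 4 h in both plates, while Sox4 falls.

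NF-kB target genes rose over a wide span of times. Of 43 tested members of the NF-kB list, 6 were called higher at 0.5 h, 19 at 1 h, 28 at 1.5 h, 37 at 2 and 2.5 h, 40 at 3 h and 38 at 4 h, and none was called lower at any time. With both genotypes in the fit 2, 13, 12, 26, 26, 29 and 33 were called higher. The list holds Bcl2a1a, Bcl2a1b and Bcl2a1d, near-identical copies whose reads the counting could split. The 6 at 0.5 h were Nfkbia and Nfkbiz (members of the IkB family), Cxcl2 (a chemokine for neutrophils), Ier3, Pim1 and Gadd45b.
Cxcl2 stood at 310 CPM at time 0 on replicate 1 and then at 3206, 7763, 3248, 3025, 3026, 3159 and 2785 CPM. On replicate 2 it stood at 400 CPM and then at 3667, 8333, 3283, 3570, 3372, 3278 and 3035 CPM. The 1 h well was the highest in both plates, and every later well stayed above all time 0 wells (173 to 1158 CPM). The log2 change of Cxcl2 was 4.60 at 1 h (SE 0.32, edgeR adjusted p = 4.38e-24) and 3.27 at 4 h (SE 0.30, edgeR adjusted p = 1.11e-16).
Nfkbia, the inhibitor that returns NF-kB to the cytoplasm, was at 955 and 1079 CPM at time 0 and at 8765 and 9396 CPM at 0.5 h. It reached 9804 and 14670 CPM at 1 h, stood lower at 1.5 h in both plates (6562 and 6940 CPM), and was at 9855 and 9411 CPM at 4 h. The 1.5 h wells are those with the largest Rn45s share.
Tnf, the cytokine, was highest at 1 h in both plates (1676 and 1504 CPM from 254 and 269 CPM) and lower at 4 h (641 and 613 CPM), where it was still called higher (log2 change 1.50, SE 0.28, edgeR adjusted p = 2.07e-05). Tnfaip3, a deubiquitinase that restrains NF-kB, was called higher from 1 h on.
Il1b, the precursor of interleukin 1 beta, was called from 1 h on and had its highest mean level at 4 h. It stood at 485 and 604 CPM at time 0, at 884 and 816 CPM at 0.5 h, at 3014 and 2871 CPM at 1 h and at 5407 and 6730 CPM at 4 h. Its log2 change was 2.54 at 1 h (SE 0.25, edgeR adjusted p = 3.88e-16) and 3.71 at 4 h (SE 0.26, edgeR adjusted p = 1.46e-27).
The chemokine Ccl3 and the costimulatory receptor Cd40 were first called at 1.5 h. Ptgs2, the cyclooxygenase of prostaglandin synthesis, was first called at 3 h and had 467 and 689 CPM at 4 h, from 86.1 and 133 CPM in the time 0 pools. On replicate 2, 1 time 0 well also held 467 CPM of Ptgs2, so its replicate 1 wells did not leave the time 0 range.

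Late inflammatory genes, cytokines and effectors known for slow induction, were not called at 0.5 or 1 h. Of 22 tested, 3 were called higher at 1.5 h, 8 at 2 h, 7 at 2.5 h, 9 at 3 h and 11 at 4 h, and with both genotypes in the fit 7 at 4 h. Il12b, a subunit of interleukin 12, was among the first, with 26.7 CPM at time 0 and 16.5, 40.6, 198, 600, 607, 466 and 340 CPM on replicate 1. On replicate 2 it was at 46.7 CPM and then at 26.5, 86.9, 152, 487, 273, 387 and 240 CPM. The 0.5 h wells lay within the time 0 range (0 to 83.2 CPM) and all wells from 1.5 h above it, and the log2 change at 2 h was 3.98 (SE 0.58, edgeR adjusted p = 2.92e-07).
Edn1, which encodes the vasoconstrictor endothelin 1, was first called at 2 h and reached 761 and 945 CPM at 4 h from 19.2 and 35 CPM (log2 change 5.20, SE 0.63, edgeR adjusted p = 4e-10). Saa3, an acute phase protein, was first called at 2.5 h, and the cytokine Il6 only at 4 h, with 138 and 111 CPM from 9.59 and 12.3 CPM. Il10, the anti-inflammatory cytokine, was called at 2, 3 and 4 h, at levels of 0 to 84.6 CPM after time 0 that rest on few counts.

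The interferon genes rose later than the immediate early and most NF-kB genes, and at about the time of the late inflammatory genes. Of the 11 IRF3 primary genes none was called at 0.5, 1 or 1.5 h, 2 at 2 h, 6 at 2.5 h, 9 at 3 h and 10 at 4 h. Of 56 interferon-stimulated genes, 2 were called at 1.5 h, 2 at 2 h, 7 at 2.5 h, 21 at 3 h and 34 at 4 h, and none was called lower at any time. With both genotypes in the fit the 4 h counts were 9 and 24. Ccl5, a chemokine for T cells, and Isg15, a ubiquitin-like protein, were the 2 IRF3 genes called at 2 h.
Ccl5 stood at 115 CPM at time 0 on replicate 1 and at 110, 132, 198, 552, 909, 1400 and 2164 CPM. On replicate 2 it stood at 140 CPM and at 76.9, 101, 270, 460, 828, 1362 and 1528 CPM. The wells up to 1.5 h lay within the time 0 range (52.0 to 281 CPM), and every well from 2 h on above it. The log2 change of Ccl5 was 2.09 at 2 h (SE 0.34, edgeR adjusted p = 2.57e-06) and 4.09 at 4 h (SE 0.36, edgeR adjusted p = 1.31e-17).
Rsad2, the antiviral enzyme viperin, was already at 1618 and 2168 CPM in the time 0 pools. It stayed between 1384 and 2550 CPM through 2 h on both plates, then rose to 5120 and 3526 CPM at 2.5 h, 13490 and 10570 CPM at 3 h and 15570 and 18220 CPM at 4 h. The wells up to 2.5 h overlap the time 0 wells (1126 to 5445 CPM, the highest being the shallowest well), and those at 3 and 4 h do not. Its log2 change was 3.39 at 4 h (SE 0.35, edgeR adjusted p = 8.92e-13).
Cxcl10, a chemokine for T cells, was called from 2.5 h, Ifit1, which binds foreign RNA, from 3 h, and Ifit3 at 4 h only. Among interferon-stimulated genes, the earliest called were Gbp5, a GTPase of inflammasome assembly, and Ifi205, of the DNA-binding PYHIN family, both at 1.5 h. Gbp5 was not called at 2 h. The signalling gene Stat2 was first called at 3 h and the transcription factor Irf7 at 4 h (log2 change 1.04, SE 0.33, edgeR adjusted p = 0.0411, lost under 7 of the alternatives tried).
Ifnb1, the gene of interferon beta, was at 0 in 12 of the 14 Zymosan wells and at 7.62 and 6.93 CPM in the other two, with 23 and 6 counts in the time 0 pools. It was not detectable above that level at this depth.

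The order was also described by a half-rise time, at which the mean CPM of the plates, interpolated between measured times, first reached time 0 plus 50% of its largest rise. Its median was 1.85 h over the 457 genes called higher, those called at 1.5 h only included. It was 0.42 h for the 15 immediate early genes called, 1.45 h for 41 NF-kB genes, 2.79 h for 11 late inflammatory genes, 2.82 h for 10 IRF3 genes and 2.9 h for 34 interferon-stimulated genes. All 15 immediate early genes had half-rise times of at most 0.72 h, and the 10 IRF3 and 34 interferon-stimulated genes of at least 2.4 h. On the mean CPM of the plates the immediate early and interferon half-rise times thus did not overlap. Single plates gave earlier times for some interferon genes, such as 0.91 h for Tap1 on replicate 1 and 1.35 h for Eif2ak2 on replicate 2. On a log2(CPM + 5) scale the mean of the plates gave 1.37 h for Zbp1, 1.47 h for Gbp5 and 1.5 h for Ifit3. On that scale replicate 1 alone gave 0.42 h for Ifit3, within the range of the immediate early genes. By first call the lists overlapped: Jund was called at 3 h only, and Gbp5 first at 1.5 h. NF-kB genes ran from 0.25 h (Ier3) to 2.68 h (Ptgs2), with 14 up to 1 h, 23 between 1 and 2 h and 4 beyond 2 h. The half-rise times of the plates lay within 0.5 h of each other for 67.2% of the 457 genes, for 15 of 15 immediate early and 10 of 10 IRF3 genes, and for 22 of 34 interferon-stimulated genes. The wells stand 0.5 or 1 h apart, which limits these times.

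**Figure D3:**
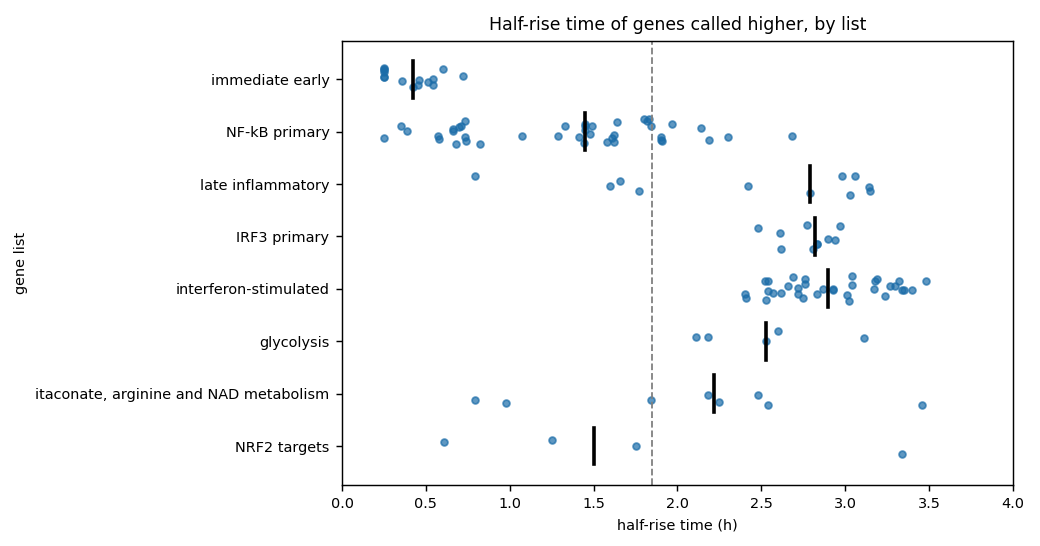
Half-rise time (h, horizontal axis) of each gene called higher than time 0 at 1 or more times, by list, with vertical bars at the list medians and a dashed line at the median of all 457 genes (1.85 h); the vertical spread within a list is only for display. Immediate early genes lie at or under 0.72 h and interferon genes at or above 2.4 h.

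A test of rise or fall within the course compared the late wells (2.5, 3 and 4 h) with the early wells (0.5 and 1 h) as means of fitted log levels, without time 0. It called 472 genes higher late (5.28%) and 397 lower late (4.44%). With the wells of each class summed before the fit, 496 were higher and 264 lower. Of the 26 immediate early genes, 11 were lower late and none higher, among them Egr1 (log2 change -3.81, SE 0.46, edgeR adjusted p = 2.56e-10) and Fos (log2 change -3.63, SE 0.25, edgeR adjusted p = 3e-23). Of 43 NF-kB genes 27 were higher late and 2, Cxcl2 and Ier3, lower; with summed wells 27 were higher and none lower (adjusted p = 0.071 for Cxcl2 in edgeR). The late against early change was -0.64 for Cxcl2 (SE 0.18, edgeR adjusted p = 0.00651) and 1.94 for Il1b (SE 0.17, edgeR adjusted p = 3.32e-21), on the log2 scale. Of 22 late inflammatory genes 14 were higher late, of 11 IRF3 genes 10 and of 56 interferon-stimulated genes 38, and none of these was lower. The median log2 change over the list was -1.04 for immediate early, 1.49 for NF-kB, 3.13 for late inflammatory, 2.44 for IRF3 and 1.31 for interferon-stimulated genes, beside -0.1 over all genes tested.

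**Figure D4:**
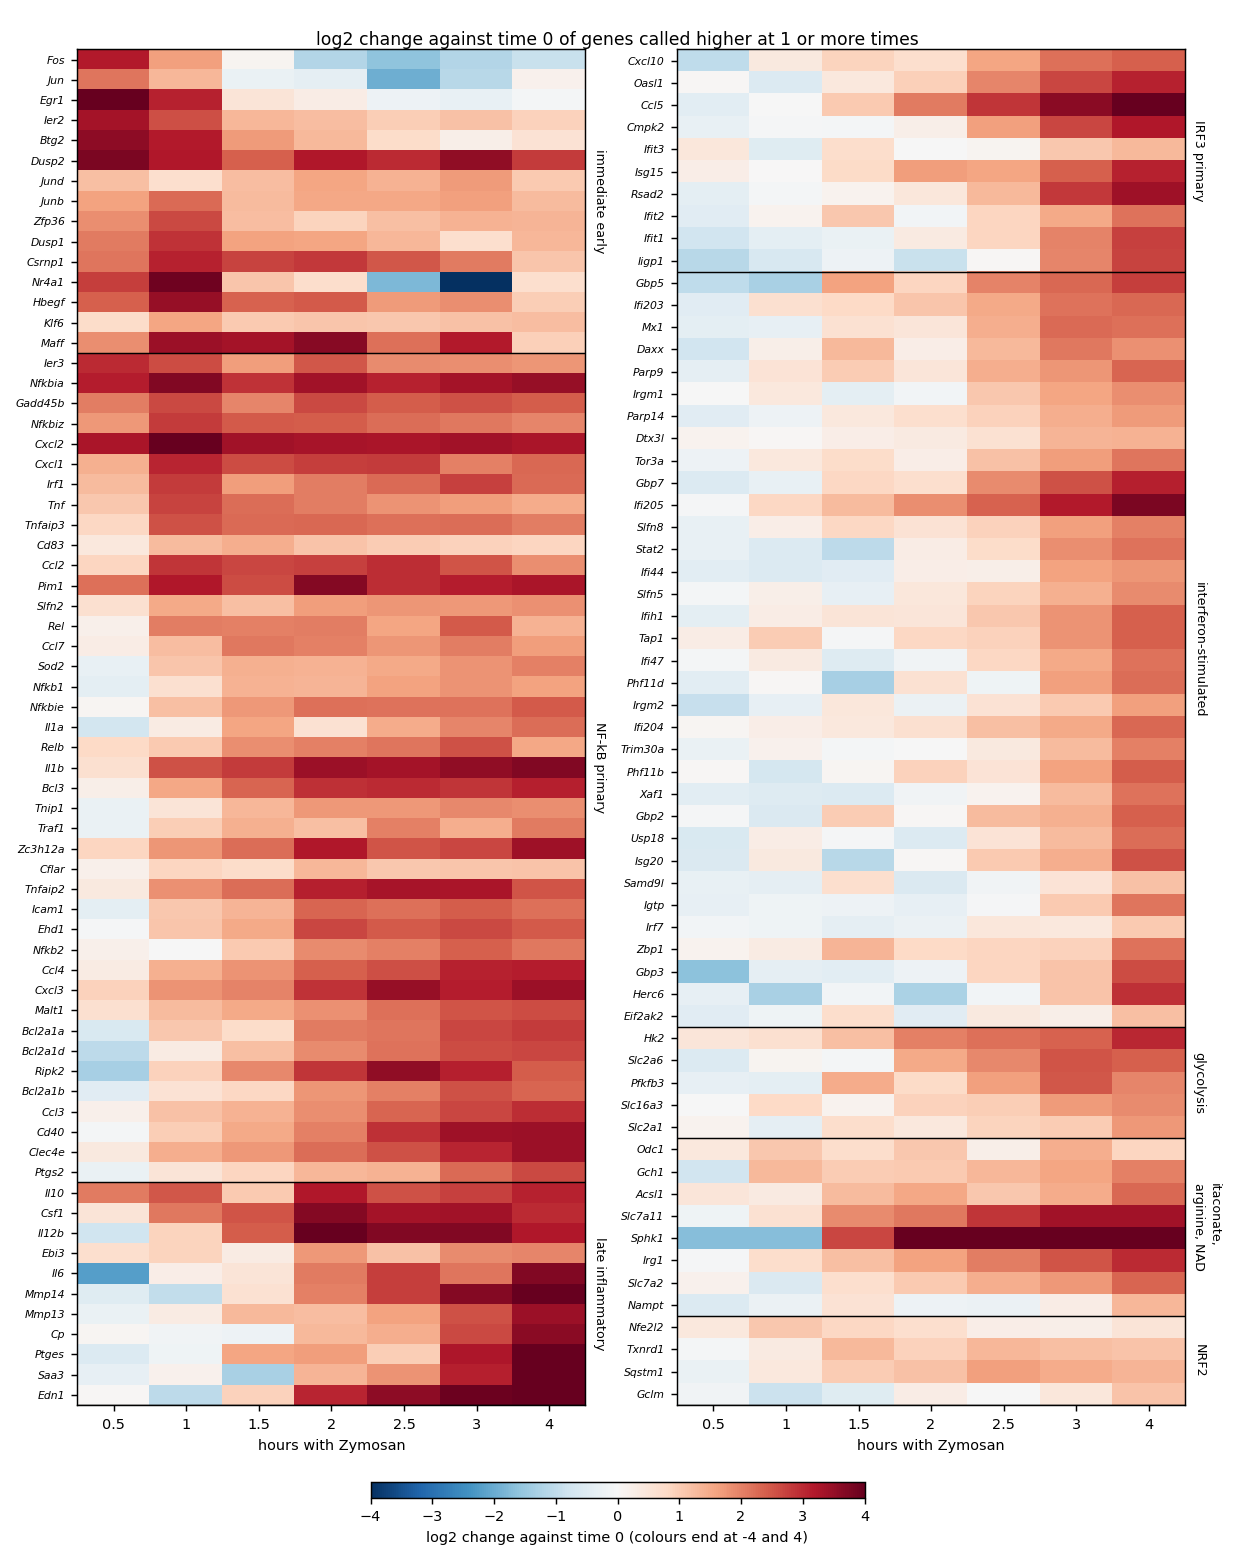
Fitted log2 change against time 0 (colour, ending at -4 and 4) at the 7 times (columns, h) of genes called higher at 1 or more times, in rows grouped by list and sorted by half-rise time within a list. Red begins in the first columns for immediate early genes, somewhat later for many NF-kB genes and in the fifth or later for most interferon genes; the dark blue cell of Nr4a1 at 3 h rests on 2 wells with no count.

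Among metabolic genes, Irg1 was called higher from 1.5 h on. Of the glycolysis list, Slc2a6 was called from 2 h on, Hk2 from 2.5 h on and Slc2a1 at 4 h only. Irg1, the enzyme that makes itaconate, stood at 193 CPM at time 0 on replicate 1 and at 172, 390, 497, 573, 916, 1189 and 1270 CPM. On replicate 2 it stood at 260 CPM and at 268, 298, 434, 734, 854, 1106 and 1773 CPM. It was first called at 1.5 h (log2 change 1.20, SE 0.29, edgeR adjusted p = 0.00504) and reached a log2 change of 2.98 at 4 h (SE 0.29, edgeR adjusted p = 1.6e-16). The wells up to 2 h overlap the time 0 wells, which reached 844 CPM on replicate 2, and those from 2.5 h on lie above all of them. The 1.5 h call was lost with both genotypes in the fit, without the time 0 pool of replicate 1 and without Zymosan replicate 1.
Of 22 glycolysis genes, none was called at 0.5, 1 or 1.5 h, 1 at 2 h, 2 at 2.5 h, 4 at 3 h and 5 at 4 h. The 5 were the glucose transporters Slc2a1 and Slc2a6, the hexokinase Hk2, Pfkfb3, which makes the activator of phosphofructokinase, and the lactate exporter Slc16a3. Hk2 rose from 22.7 and 17.1 CPM to 136 and 139 CPM at 4 h (log2 change 3.01, SE 0.62, edgeR adjusted p = 0.000156), and Slc2a6 from 56.1 and 47.7 CPM to 267 and 260 CPM at 3 h (log2 change 2.51, SE 0.41, edgeR adjusted p = 1.03e-06). The other tested members, which include most enzymes of the pathway, were called in neither direction at any time, and the list median at 4 h was 0.25 on the log2 scale beside -0.14 over all genes. With both genotypes in the fit, 2 glycolysis genes were called at 4 h, and 2 of the itaconate, arginine and NAD list.
The median half-rise time of the 5 glycolysis genes was 2.53 h. The plates lay within 0.5 h of each other for 1 of the 5, so their order against the interferon genes cannot be read from these wells.
Of 12 tested genes of itaconate, arginine and NAD metabolism, 8 were called higher at 1 or more times. At 4 h these were Irg1, the amino acid transporters Slc7a2 (arginine) and Slc7a11 (cystine), Nampt (NAD salvage), Gch1 (tetrahydrobiopterin synthesis) and Acsl1 (fatty acid activation). Nos2, the inducible nitric oxide synthase, was at 0 to 18.5 CPM in every Zymosan well and was not called at any time.
None of 23 TCA cycle genes and none of 40 respiratory chain genes was called at any of the 7 times. Their list medians at 4 h were -0.14 and -0.29 on the log2 scale, beside -0.14 over all genes. None of 15 genes of cholesterol synthesis and uptake was called. Over all genes 7.47% were called in either direction at 1 or more times, so lists of this size would hold few calls at that share. With 1 well per plate and time, a list without a call may hold changes, 2-fold and larger ones among them, that this test did not detect. Of 16 genes of the NRF2 list, which holds antioxidant enzymes among others, Txnrd1 and Sqstm1 were called from 1.5 h on and Gclm at 4 h. Nfe2l2, the gene of NRF2 itself, was called at 1 h only. Of 10 HIF targets Ndrg1 alone was called, from 1.5 h on, with 554 and 609 CPM at 2 h from 94.3 and 84.3 CPM.

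Of 24 genes of the Zymosan receptors and the Syk-Card9 route, 4 were called higher and 2 lower at 1 or more times. Tlr2 rose from 67.5 and 78.3 CPM to 365 and 203 CPM at 2.5 h (log2 change 2.07, SE 0.35, edgeR adjusted p = 4e-06), and Cd14, a co-receptor, from 299 and 309 CPM to 779 and 989 CPM at 4 h. The others called higher were Nlrp3, the inflammasome sensor, from 1 h, and Syk, at 2 and 3 h. Clec7a itself stood at 596 and 611 CPM at time 0 and at 328 and 294 CPM at 4 h, a difference that did not pass the threshold (log2 change -0.72, SE 0.25, edgeR adjusted p = 0.078). It was lower late than early (log2 change -0.53, SE 0.16, edgeR adjusted p = 0.019), but not with summed wells (edgeR adjusted p = 0.108). The 2 called lower were the kinases Irak1, at 1.5, 2.5 and 4 h, and Irak4, at 2.5 h.
Clec4e (Mincle), a lectin receptor that is counted in the NF-kB list, rose from 142 and 174 CPM to 1517 and 1338 CPM at 4 h.
Of 20 tested genes of feedback and anti-inflammatory control, 1 was called higher at 0.5 h, 2 at 1 h, 5 at 1.5 h and 8 to 10 from 2 h on. Pde4b, which degrades cyclic AMP, was the first. Socs3, an inhibitor of cytokine receptor signalling, rose from 30.6 and 39.8 CPM to 307 and 272 CPM at 1 h and 514 and 690 CPM at 3 h (log2 change 4.26, SE 0.39, edgeR adjusted p = 4.32e-18). Il1rn, the interleukin 1 receptor antagonist, was first called at 2 h. Zfp36l1, which promotes mRNA decay, was called lower at 3 and 4 h.

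Over the 7 times 215 genes (2.41%) were called lower at 1 or more times, of which 3 were called at 0.5 or 1 h. These were Jak2, Txnip and Fam46a, named because they are the only ones. Jak2, a kinase of cytokine receptors, was at 33.0 and 23.9 CPM at 0.5 h against 96.5 and 128 CPM, and higher than time 0 at 4 h (log2 change 2.00, SE 0.36, edgeR adjusted p = 9.33e-06). Txnip, which restrains glucose uptake, was at 20.3 and 2.90 CPM at 1 h against 97.3 and 107 CPM, the lower value being a single count.
From 1.5 h on, Sox4, a transcription factor, and Rgs2, which limits G protein signalling, were called lower at each time. Sox4 stood at 529 CPM at time 0 on replicate 1 and at 584, 287, 64.3, 74.4, 29.9, 38.2 and 35.6 CPM. On replicate 2 it stood at 386 CPM and at 477, 203, 80.0, 88.0, 30.8, 18.1 and 53.2 CPM. Its log2 change at 4 h was -3.12 (SE 0.61, edgeR adjusted p = 0.000101). The time 0 wells of Sox4 ran from 0 to 769 CPM, with 0 and 77.8 CPM in the 2 shallowest wells, and the wells from 1.5 h on lie below all of the others (lowest 168 CPM).
Rgs2 fell from 1299 and 1245 CPM to 316 and 129 CPM at 4 h (log2 change -2.27, SE 0.28, edgeR adjusted p = 5.58e-11). The chemokine receptors Ccr2 and Cx3cr1, the transcription factor Mef2c, and Zfp36l2 were each called lower at 1 or more times from 2 h on. Among the genes of the macrophage list, Ctss and Cx3cr1 were called lower and Msr1 and Sfpi1 higher at 1 or more times.
Many of the lowest fitted changes belong to genes with at most 3 counts in the Zymosan wells (21 of the 93 called lower at 2.5 h and 11 of the 109 at 4 h), for which no fold is given here.

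Against LPS, the late Zymosan wells differed in few genes. Of 8932 genes 12 were higher with Zymosan (0.134%) and 40 lower (0.448%). With the late wells of a plate summed to 1 sample, none was called higher and 2 lower, and Rsad2 (adjusted p = 0.062) and Cxcl2 (adjusted p = 0.109) no longer passed in edgeR. With either replicate of Zymosan or of LPS left out 13 to 22 genes were called, and with both genotypes in the fit 3. Of the 11 IRF3 genes 9 were lower with Zymosan, and of the 56 interferon-stimulated genes 6. The median log2 difference was -1.05 over the IRF3 list and -0.64 over the interferon-stimulated list, beside 0.02 over all genes tested. Summed over the late wells, Rsad2 stood at 12260 and 12390 CPM with Zymosan and 31650 and 25720 CPM with LPS (log2 difference -1.53, SE 0.19, edgeR adjusted p = 2.86e-08), and Cxcl10 at 1718 and 1506 CPM against 3716 and 3455 CPM. The neutrophil chemokines went the other way: Cxcl2 stood at 2968 and 3188 CPM with Zymosan and 1364 and 1556 CPM with LPS (log2 difference 0.98, SE 0.16, edgeR adjusted p = 3.7e-05). Cxcl1 and Cxcl3 were also higher with Zymosan, as was Hmox1, the haem oxygenase of the NRF2 list. None of the 22 late inflammatory, 22 glycolysis or 12 itaconate, arginine and NAD genes was called between Zymosan and LPS, and Il1b was at 5401 and 6046 CPM against 5351 and 5189 CPM (log2 difference 0.01, SE 0.14, edgeR adjusted p = 1).
Against Pam3Cys, 175 genes were higher with Zymosan (1.96%) and 45 lower (0.504%). With summed wells 150 were higher and 12 lower. Of the IRF3 genes 10 of 11 were higher, and of the interferon-stimulated genes 38 of 56. Rsad2 stood at 1869 and 1531 CPM in the late Pam3Cys wells, at the level of time 0 (log2 difference 2.62, SE 0.20, edgeR adjusted p = 7.49e-19). Of 43 NF-kB genes 10 were higher with Zymosan, among them Tnfaip3, Ccl2 and Ccl4, and none lower. The Cxcl2 difference, from 3179 and 3081 CPM with Pam3Cys, did not pass the threshold (log2 difference 0.17, SE 0.16, edgeR adjusted p = 0.772).
Of the glycolysis genes Slc2a6, Hk2 and Pfkfb3 were higher with Zymosan than with Pam3Cys, and so was Irg1, at 1154 and 1353 CPM against 818 and 754 CPM (log2 difference 0.73, SE 0.16, edgeR adjusted p = 0.00118). Lower with Zymosan were Cx3cr1, Id3 and the transcription factor Pou2f2, which stood at 285 and 359 CPM against 743 and 812 CPM. Only the late wells enter these tests. The 0.5 and 1 h Pam3Cys wells of replicate 2, which do not, held 5384 and 3722 CPM of Rsad2, against 1417 and 1478 CPM on replicate 1.

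**Figure D5:**
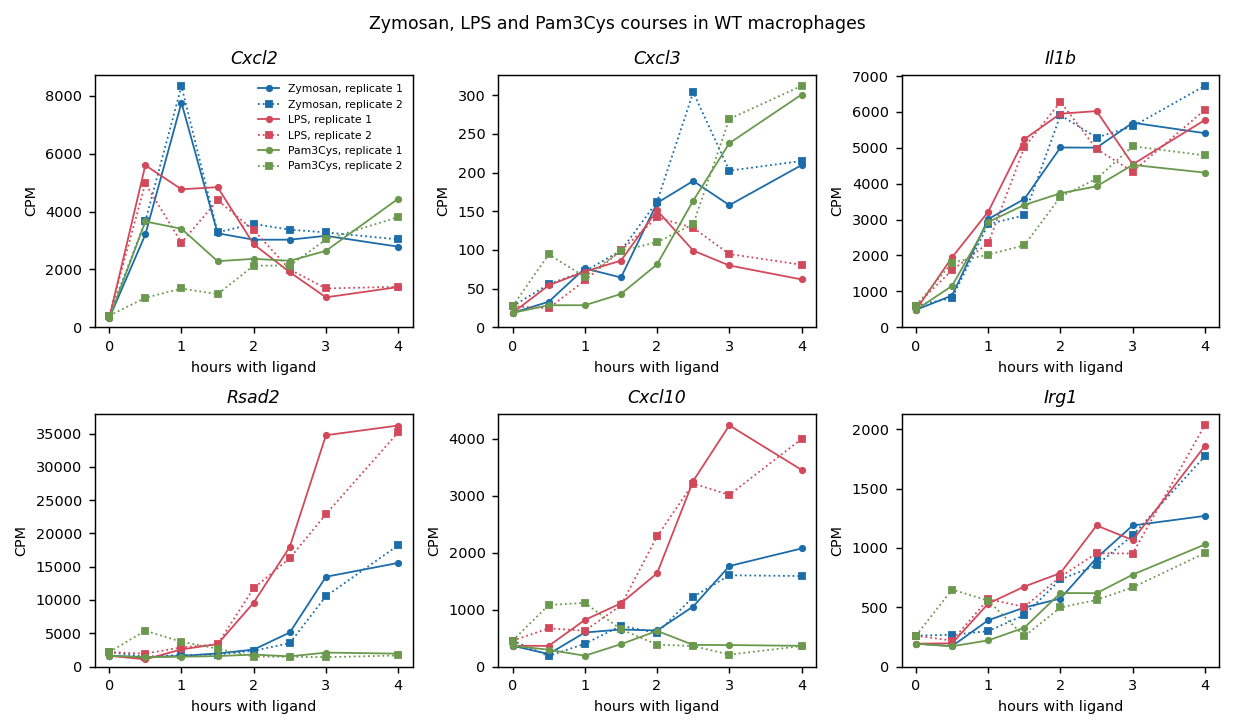
Level (CPM, vertical axis from 0) of 6 genes against time (h) with Zymosan (blue), LPS (red) and Pam3Cys (green), with solid lines for WT replicate 1, dotted lines for replicate 2 and pooled time 0 at 0 h. Late Rsad2 and Cxcl10 lie between LPS and Pam3Cys with Zymosan, late Cxcl2 and Cxcl3 above LPS, and the Il1b wells of Zymosan and LPS overlap.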

How the data were processed

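3′ digital gene expression libraries of single wells were made by a modified SCRB-Seq protocol, per the labels' protocols. The authors deposited 1 table of whole-number counts per gene and well, with 23481 genes, of which 7381 have no count; the submitters' processing notes name BWA and mm10, and no source used here gives the counting tool or says whether it used strand or molecular identifiers. The members and gene lists were chosen with earlier results of these data known.
Each plate's 12 time 0 wells were added up to 1 sample, and all WT wells (85 groups on 2 plates, 170 samples) entered 1 fit with edgeR 4.0.16 in R 4.3.3: filterByExpr with a minimum count of 10, TMM scaling, and the quasi-likelihood test with robust spread, which gives every adjusted p here (Benjamini-Hochberg over 8932 genes, threshold 0.05). A group has 1 well per plate, so the spread is shared over all WT groups. The fit was also run on simulated data with 200 changed genes. There most 2-fold and many 4-fold changes were not called, and some unchanged genes were called. Levels are CPM of total counts. Python 3.11.15 computed levels, half-rise times and list counts.
Genes were named by a rule: a list of genes of known role; per comparison the 6 highest and 6 lowest log2 changes among called genes with 30 or more counts and the same direction in both plates; up to 4 members of each list with the smallest p; and the first and last half-rise of a list. Alternatives were DESeq2 1.42.0, DESeq2 size factors, no filter on low counts, the plate as a term, both genotypes in 1 fit, the Zymosan-labelled time 0 well alone, 10% of the plate's profile subtracted, and each replicate left out. Summing the wells of a time class, and leaving time 0 wells under 150000 counts out, were added after seeing the data. Results on some genes are not reported here.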

Additional observations from a re-analysis of the deposited data

How the results depend on the processing

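Every count of called genes was recomputed under each alternative. With both genotypes in 1 fit, 12 genes were called at 0.5 h, 32 at 1 h, 26 at 1.5 h, 76 at 2 h, 108 at 2.5 h, 157 at 3 h and 228 at 4 h against time 0, beside 23, 67, 137, 219, 284, 383 and 459 as reported. In that fit 24 were called early and 288 late against time 0 (43 and 626 as reported), 503 late against early (869), 3 against LPS (52) and 112 against Pam3Cys (220). DESeq2 called 231 at 1.5 h, 66 early against time 0 and 90 against LPS. With 10% of the plate's profile subtracted, 22 were called against LPS, and with the wells of a time class summed, 2. Leaving out a Zymosan or time 0 replicate gave 16 to 19 calls at 0.5 h, 29 to 51 at 1 h, 33 to 77 at 1.5 h, 85 to 148 at 2 h, 113 to 181 at 2.5 h, 162 to 254 at 3 h and 227 to 338 at 4 h. It gave 26 to 36 early and 233 to 580 late against time 0, and late against early 336 or 461 without a Zymosan replicate. Leaving out a replicate of Zymosan or of the other ligand gave 13 to 22 calls against LPS and 137 to 179 against Pam3Cys. Time 0 enters these last 3 comparisons only through the shared spread and the genes tested, and without either of its replicates they gave 836, 47 and 210 calls. The lowest count against time 0 was without time 0 replicate 1 at each time, and late against early without Zymosan replicate 2. In these fits the lone sample of a group is assumed to vary like the other groups. On a log2(CPM + 5) scale the median half-rise time was 1.6 h over all genes called, 0.33 h for immediate early, 1.04 h for NF-kB, 1.95 h for late inflammatory, 2.38 h for IRF3 and 2.55 h for interferon-stimulated genes, in the same order. Single interferon genes came earlier on that scale, the first being Zbp1 at 1.37 h, so the lower limit of 2.4 h holds for CPM only. In CPM, over the plates left out in turn, the medians of these groups were 1.79 to 1.87 h, 0.35 to 0.39 h, 1.28 to 1.63 h, 2.67 to 2.94 h, 2.76 to 2.86 h and 2.74 to 2.92 h, so the order of the last 3 lists is not fixed. The Il1b difference from LPS, 0.01 on the log2 scale, was -0.004 with DESeq2, -0.004 with DESeq2 size factors, and -0.036 to 0.096 with a replicate left out. Of 479 values of 38 single results, 444 kept direction and side of the threshold, 29 lost the call, 2 gained it (Clec7a at 4 h) and 4 changed sign (Il1b). The causes were not tested. A level of a few counts per well limits the genes at low CPM.

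Plates of the same number did not deviate together: over 28 pairs of groups the correlation of their deviations had a median of 0.025 and was over 0.1 in 1. With the plate as a term (replicate block) the counts were 25, 71, 159, 225, 304, 396 and 471 at the 7 times, 43 early, 652 late, 888 late against early, 55 against LPS and 229 against Pam3Cys, and none of the 38 single results changed its call.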

Other observations

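Lists outside the course's main groups moved in few members. Of 25 cell cycle genes, Ccnd2, the cyclin D2 of the G1 phase, was the one called higher at more than 1 time. It stood at 196 and 174 CPM at time 0, at 160 and 200 CPM at 1 h, at 756 and 741 CPM at 2 h and at 1572 and 1861 CPM at 4 h (log2 change 3.45, SE 0.37, edgeR adjusted p = 5.96e-13). The wells from 2 h on lie above all time 0 wells (113 to 270 CPM). Late, Ccnd2 was lower with Zymosan than with LPS (log2 difference -1.07, SE 0.20, edgeR adjusted p = 0.000476) and higher than with Pam3Cys (log2 difference 1.84, SE 0.20, edgeR adjusted p = 1.03e-11). Top2a, Ccnd1 and Rrm1 were lower late than early.

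Of 18 genes of the ATF4 and unfolded protein response list, Cebpb, a transcription factor of inflammatory and stress responses, was called at every time but 0.5 and 2 h and reached 526 and 363 CPM at 4 h from 102 and 123 CPM. Hspa5, the chaperone BiP, and Mthfd2, a mitochondrial folate enzyme, were called at 4 h only. Of 12 genes of cholesterol efflux and LXR targets, Lpl, the lipoprotein lipase, was called lower at 1.5 and 2.5 h, with 12910 and 7247 CPM at 2.5 h from 24280 and 19480 CPM. On replicate 2 the 2.5 h well lay within the range of the time 0 wells, whose lowest held 6334 CPM.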
